A study of Homo sapiens with 18 samples.

Results

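The core pluripotency regulators examined were the transcription factors OCT4 (encoded by POU5F1), NANOG, SOX2, KLF4 and SALL4, the RNA-binding proteins LIN28A, LIN28B and L1TD1, the telomerase subunit TERT, and the long noncoding RNA SOX2-OT. They were chosen by name, as 10 of the 57133 genes in the count table, and all 10 passed the filter on low counts that left 17672 genes for testing. RNA-seq was performed on PGP1, an established human induced pluripotent stem cell (iPSC) line, to ask what loss of PCGF6, a subunit of the noncanonical Polycomb repressive complex PRC1.6, does to gene expression. The wild-type (WT) group held 2 libraries of unedited PGP1 cells. The KO1 and KO2 groups held 2 libraries each, and each group was a single PCGF6-knockout clone of PGP1 made with a pair of Cas9 guides in the first exon, with a deletion of its own on both alleles. All groups shared the PGP1 background and were grown on Matrigel in mTeSR1, a medium for pluripotent stem cells. Nothing in the sources names separate cultures behind the 2 libraries of a group, so p-values measure only the spread between libraries, which may be technical. With 1 clone per deletion, the edit and the history of the clone cannot be told apart.

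OCT4, SOX2 and NANOG bind many of the same enhancers in human pluripotent cells, often as an OCT4-SOX2 pair on a composite DNA element, and their own genes are among the targets. SALL4 and KLF4 act with them, and KLF4 is one of the factors used in reprogramming. LIN28A and LIN28B block maturation of the let-7 microRNAs, L1TD1 is an RNA-binding protein that associates with LIN28A, and TERT is the catalytic subunit of telomerase, active in pluripotent cells and silent in most somatic cells. SOX2-OT is transcribed across the SOX2 gene on the same strand. SOX2 is also a factor of neural progenitors, and its level in pluripotent cells is known to bias the lineages they enter.

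The libraries held between 15877396 and 18918609 counts. PCGF6 itself, on chromosome 10, had 268 and 300 counts in WT, 99 and 103 in KO1, and 187 and 159 in KO2. Both clones were below WT, with log2 fold changes of -1.67 ± 0.14 (SE) in KO1 and -0.77 ± 0.13 in KO2. The deletions lie in the first exon alone, so reads from the other exons can remain in the clones, and PCGF6 counts were higher in KO2 than in KO1. The labelled cell type was checked on its markers. POU5F1, NANOG and SOX2 were present in every library, but ZFP42, another marker of pluripotent cells, had at most 2 counts in any KO library, and all 18 tested markers of mesendoderm, a differentiated lineage, were higher in the clones. Levels are given as CPM, counts scaled to the library size after TMM normalization. A gene passed the test at a Benjamini-Hochberg adjusted p under 0.05 in edgeR's quasi-likelihood test over all 17672 genes. It was called when its log2 fold change was also over 0.6 in size, the threshold of the study's methods.

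SOX2 and SOX2-OT were the 2 regulators called when the 4 PCGF6-KO libraries were compared with WT, and both were lower. No regulator was called higher by edgeR or by DESeq2, which called the same 2 as lower. At an unadjusted p under 0.05 in edgeR, 2 were higher, NANOG and SALL4, and 5 were lower, SOX2, SOX2-OT, LIN28A, L1TD1 and TERT. The share of all genes at that cutoff was not counted, so nothing is read from these counts. Of all tested genes, 23.6% were called in that comparison, made up of 8.70% called lower and 14.9% called higher. By adjusted p alone, NANOG was higher and SOX2, SOX2-OT, LIN28A and L1TD1 were lower, which is 5 of 10 against 37.1% of all genes (20.5% higher and 16.6% lower). The 10 had a median log2 fold change of -0.21, against 0.00 for the 17672 genes. In KO1, SOX2-OT was the 1 regulator called, where 24.8% of all genes were called and 8.80% were called lower. In KO2, SOX2, SOX2-OT and TERT were called, where 29.4% of all genes were called and 12.5% were called lower. SOX2-OT was thus the 1 regulator called in both clones, as were 20.6% of all genes in the same direction. These 3 comparisons share the WT libraries. By adjusted p alone, 5 of the 10 passed in the same direction in each clone, NANOG as higher and SOX2, SOX2-OT, LIN28A and L1TD1 as lower, against 36.3% of all genes.

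**Figure D1:**
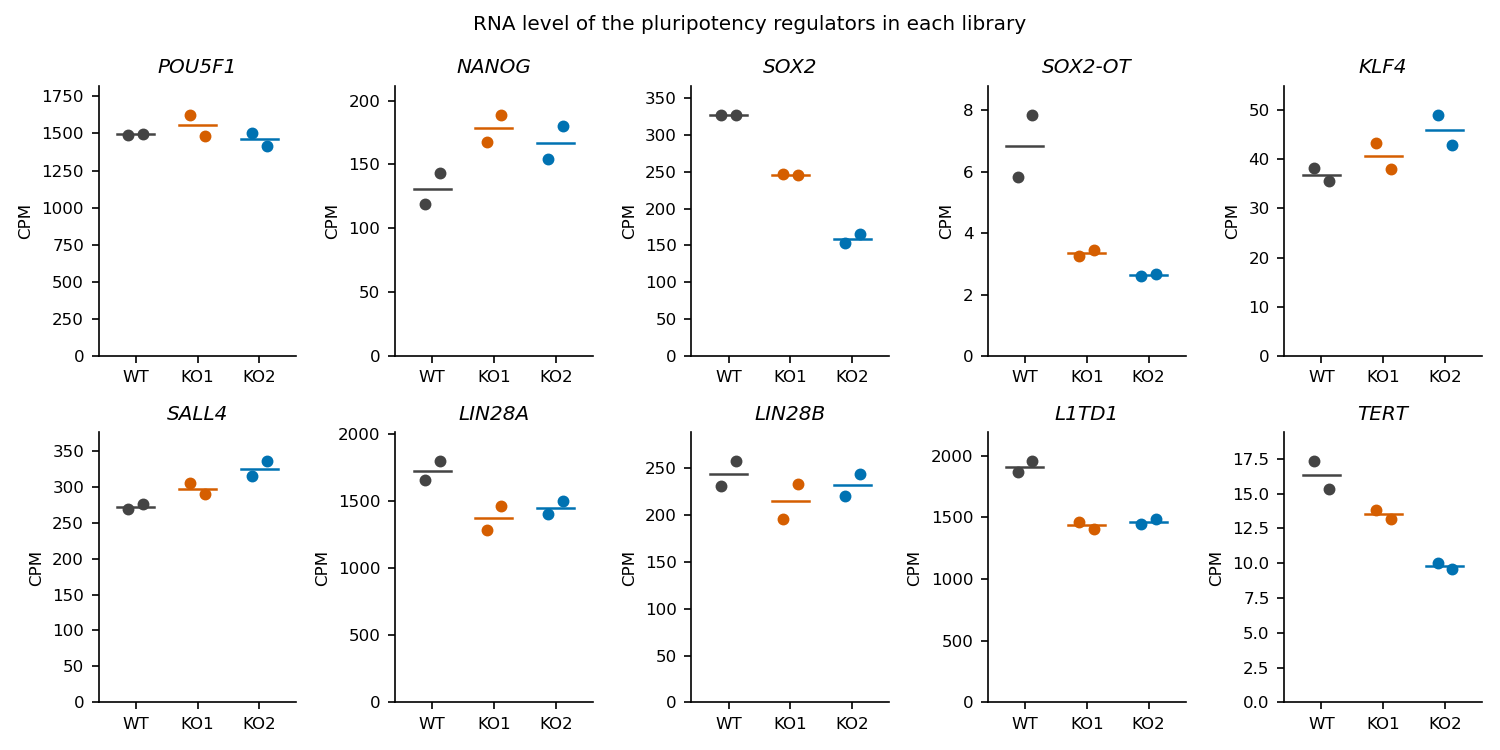
RNA level of each regulator in CPM (vertical axes, from 0) in the 2 libraries each of WT, KO1 and KO2 (points), with the mean of the group as a bar. SOX2 falls from 327 CPM in both WT libraries to 153 and 166 in KO2, while the POU5F1 points of the clones lie on either side of the WT points.

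By the position of the libraries alone, all 4 PCGF6-KO libraries lay below both WT libraries in CPM for SOX2, SOX2-OT, LIN28A, L1TD1 and TERT. They lay above both for NANOG and SALL4 and overlapped with WT for POU5F1, KLF4 and LIN28B. Among all tested genes, 57.1% had libraries that did not overlap, 27.6% below and 29.5% above WT. The 7 of 10 is to be read against that share. Summed over the 10 regulators, the level was 6023 to 6310 CPM in WT, 5350 to 5363 in KO1 and 5258 to 5378 in KO2.

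Levels of different genes were compared per kilobase of the deposited gene length. In WT, POU5F1 stood highest at 516 ± 1.65 CPM per kb (SD, n = 2) and ranked 27 among the 17672 tested genes. L1TD1 followed at 496 ± 15.8 CPM per kb, and LIN28A at 430 ± 24.7. SOX2, at 130 ± 0.116 CPM per kb, was well below these 3 and ranked 195. SALL4 had 47.2 ± 0.809, LIN28B 40.7 ± 3.07 and NANOG 24.3 ± 3.13 CPM per kb. KLF4 had 10.1 ± 0.503 and TERT 3.55 ± 0.304 CPM per kb, and SOX2-OT was lowest at 0.216 ± 0.0451, ranked 15748. The length of SOX2-OT sums the exons of many transcripts, which lowers its value per kilobase. The place of NANOG also depends on its deposited length, 5393 bases, and on reads that may be counted for its copy NANOGP8. No 2 neighbours in this order overlapped in WT. The order was the same in both clones, where the 1 pair of neighbours with overlapping libraries was LIN28B and NANOG in KO1, at 32.7 to 38.9 and 31.1 to 35.0 CPM per kb. The rank of SOX2 among all tested genes was 316 in KO1 and 639 in KO2. POU5F1 ranked 24 and 32 in the clones.

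SOX2 is a single-exon gene on the forward strand of chromosome 3 (GRCh38 chr3:181711925-181714436), placed within an intron of SOX2-OT. It had 5321 and 5460 counts in the WT libraries, 4711 and 4461 in KO1, and 2777 and 2658 in KO2. In CPM, this was 327 and 327 in WT, 246 and 245 in KO1, and 153 and 166 in KO2. The 3 groups did not overlap, with KO1 between WT and KO2. SOX2 fell by 0.41 ± 0.06 on the log2 scale in KO1 (SE, adjusted p = 1.5e-06, edgeR), to 75.2% of WT. It fell by 1.04 ± 0.06 in KO2 (adjusted p = 4.7e-14, edgeR), to 48.7% of WT. KO2 was below KO1 by a log2 difference of -0.63 ± 0.06 (adjusted p = 1.3e-08, edgeR), and SOX2 was the 1 regulator called between the clones, where 7.87% of all genes were called and 4.14% were called lower. In bulk RNA, fewer SOX2-expressing cells and less SOX2 RNA per cell cannot be told apart. With the 4 KO libraries as 1 group the log2 fold change was -0.69 ± 0.19 (adjusted p = 0.0178, edgeR). That call was lost without WT replicate 1 (-0.69, adjusted p = 0.0989, edgeR) or WT replicate 2 (-0.69, adjusted p = 0.106), and without KO2 replicate 1 it was under the fold threshold (-0.57, adjusted p = 0.0228). The call between the clones was also under the fold threshold without KO2 replicate 1 (-0.57, adjusted p = 1.4e-06, edgeR). KO1 had fewer PCGF6 counts and more SOX2 than KO2. The remaining PCGF6 counts can come from exons outside the deletions and do not measure PCGF6 protein, and a relation to SOX2 was not tested.

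The SOX2 and NANOG promoters are printed because these genes moved in opposite directions in both clones. Each is the 250 bases before the RefSeq start in GRCh38.p14 on the forward strand, chr3:181711675-181711924 for SOX2 and chr12:7789152-7789401 for NANOG. In SOX2 the capitals mark ATGCAAA, the first letters of the octamer ATGCAAAT that OCT4 can bind, from position -100 relative to the start. In NANOG they mark the reverse complement of the SOX letters CATTGT, any base and ATGCAAA in a row, from position -120.
SOX2: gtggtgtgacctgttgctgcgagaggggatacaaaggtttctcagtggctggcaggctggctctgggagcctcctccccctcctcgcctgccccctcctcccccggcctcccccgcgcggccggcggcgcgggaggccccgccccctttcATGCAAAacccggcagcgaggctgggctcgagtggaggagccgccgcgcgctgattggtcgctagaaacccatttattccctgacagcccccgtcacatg
NANOG: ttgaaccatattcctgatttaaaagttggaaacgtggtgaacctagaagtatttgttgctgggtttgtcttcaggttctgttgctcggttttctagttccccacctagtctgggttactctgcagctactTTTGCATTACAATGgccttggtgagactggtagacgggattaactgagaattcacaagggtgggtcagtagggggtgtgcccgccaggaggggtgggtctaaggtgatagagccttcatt
Both strands of each window of 250 bases before to 50 after a start were searched, and these motifs were chosen after the sequences were seen. ATGCAAA is held by 4.47% of the 34943 RefSeq promoters and overlaps that longer motif, which is held by 3 of them (0.00859%). The full octamer ATGCAAAT, held by 1.77%, was in none of the 10 windows found for 7 of the 10 regulators. POU5F1, SALL4 and LIN28A are the other regulators. A match is a description of letters, not a bound site.

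SOX2-OT, a long noncoding RNA, spans 847.1 kb of the forward strand (chr3:180989762-181836880), starting 722.2 kb before SOX2 and ending 122.4 kb after it. It had few counts, 95 and 131 in WT, 62 and 63 in KO1, and 47 and 43 in KO2. The corresponding levels were 5.83 and 7.85 CPM in WT, 3.24 and 3.47 in KO1, and 2.59 and 2.68 in KO2. Every KO library was below both WT libraries. SOX2-OT fell by 1.03 ± 0.20 on the log2 scale in KO1 (adjusted p = 1.3e-04, edgeR) and by 1.38 ± 0.21 in KO2 (adjusted p = 4.6e-06). Between the clones the log2 difference was -0.35 (95% interval -0.82 to 0.13, adjusted p = 0.332, edgeR), an interval that holds both 0 and the difference seen for SOX2. With the 4 KO libraries together, the log2 fold change was -1.19 ± 0.21 (adjusted p = 0.00204, edgeR), which was called in each set of libraries that left 1 out. SOX2 and SOX2-OT share 0 exon bases in GENCODE 44, so reads within SOX2 exons are not counted for SOX2-OT on that annotation. SOX2-OT shares 13 exon bases with DNAJC19, on the reverse strand at its start, and the strand setting of the counting is not given in the sources used here.

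The nearest gene of at least 1 log2 CPM on each side of SOX2 had a log2 fold change nearer to 0 than that of SOX2 in both clones, a difference that was not tested. DNAJC19, a mitochondrial import protein gene 722.2 kb before SOX2, had a log2 fold change of -0.27 ± 0.09 in KO1 and -0.29 ± 0.09 in KO2, and passed the adjusted p in both (0.0149 and 0.00987, edgeR). ATP11B, a phospholipid flippase gene 1079.1 kb after SOX2, had -0.33 ± 0.10 and -0.36 ± 0.10 (adjusted p = 0.00762 and 0.00339, edgeR). Neither neighbour was called in either clone. FXR1, TTC14 and CCDC39 lie beyond DNAJC19 and were added after their values were seen. FXR1 had log2 fold changes of -0.03 and 0.03 (adjusted p = 0.679 and 0.697, edgeR). TTC14 had -0.15 and -0.38 and CCDC39 had -0.52 and -0.69, and CCDC39 was called in KO2 (adjusted p = 0.00227, edgeR).

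POU5F1, the OCT4 gene, lies on the reverse strand of chromosome 6 (chr6:31164337-31180731). Its level was 1492 and 1499 CPM in WT, 1625 and 1485 in KO1, and 1506 and 1416 in KO2. The groups overlapped. The log2 fold change was 0.01 with the 4 KO libraries together (95% interval -0.14 to 0.16, adjusted p = 0.907, edgeR). It was 0.06 in KO1 (95% interval -0.05 to 0.16) and -0.03 in KO2 (-0.14 to 0.07), so changes over the fold threshold lie outside each interval. POU5F1 shares 248 exon bases with TCF19 on the opposite strand, and TCF19 differed from WT by 0.10 on the log2 scale (adjusted p = 0.420, edgeR). The OCT4-like genes POU5F1B and POU5F1P3, copies that can share reads with POU5F1, had between 0.717 and 1.14 counts per 100 counts of POU5F1 in every library.

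NANOG, a homeodomain factor on chromosome 12 (chr12:7787794-7799146, forward strand), was higher in the clones. It had 119 and 143 CPM in WT, 168 and 189 in KO1, and 154 and 180 in KO2. All 4 KO libraries were above both WT libraries, and the clones overlapped. NANOG rose by a log2 fold change of 0.44 ± 0.08 in KO1 (adjusted p = 5.8e-05, edgeR) and 0.35 ± 0.08 in KO2 (adjusted p = 7.8e-04), below the fold threshold in both. The spread within WT was wide, and the pooled change of 0.40 ± 0.10 (adjusted p = 0.0139, edgeR) came to 0.27 (adjusted p = 0.174) without WT replicate 1. In KO2, the adjusted p was 0.0549 without that library (log2 fold change 0.22, edgeR) and 0.0712 by DESeq2. NANOGP8, a retrogene copy nearly identical to NANOG, took 21.4 to 25.2 counts per 100 NANOG counts in the 6 libraries. Its log2 fold change of 0.41 ± 0.11 (adjusted p = 0.0171, edgeR) was close in size to that of NANOG, and the counting may have split reads between them. NANOGP1, a duplicated copy, was called higher in KO1 (0.76, adjusted p = 7.6e-04, edgeR) and had 0.31 in KO2 (adjusted p = 0.168). Of the 27 pseudogene and antisense genes of the regulators, 5 passed the filter on low counts, and the other of them, POU5F1P4, differed by 0.57 on the log2 scale (adjusted p = 0.131, edgeR).

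Ratios of counts within a library do not depend on how libraries are scaled. SOX2 had 21.9 and 21.8 counts per 100 POU5F1 counts in WT, 15.2 and 16.5 in KO1, and 10.2 and 11.7 in KO2. The groups did not overlap. NANOG had 7.99 and 9.54 counts per 100 POU5F1 counts in WT, 10.3 and 12.7 in KO1, and 10.2 and 12.7 in KO2. Both clones were above WT and alike in range. SOX2-OT had 1.79 and 2.40 counts per 100 SOX2 counts in WT, 1.32 and 1.41 in KO1, and 1.69 and 1.62 in KO2. The WT libraries were highest in this ratio, and KO1, the clone with more SOX2, was lowest. With 43 to 131 SOX2-OT counts in a library, this order is uncertain, and it was not tested.

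**Figure D2:**
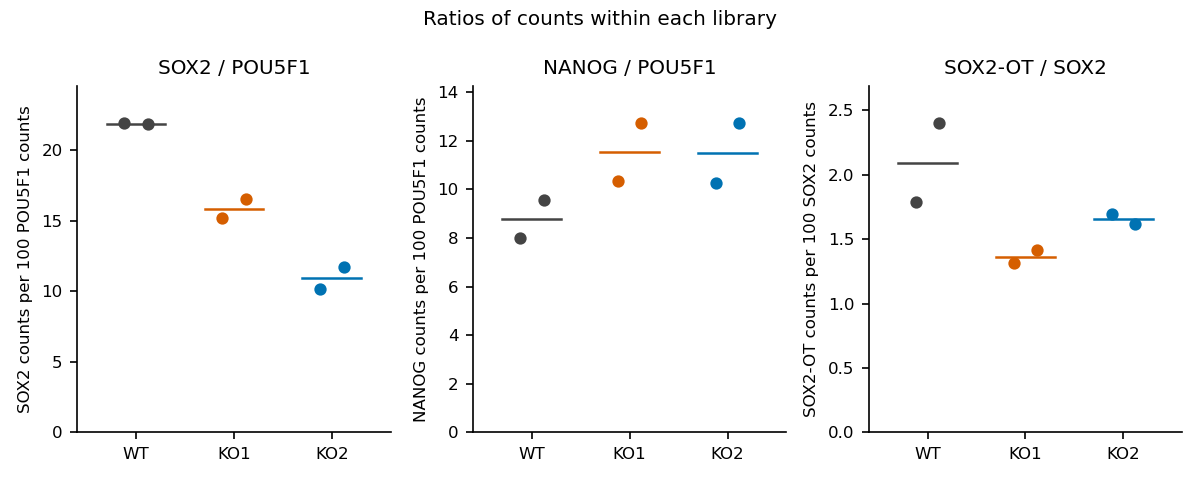
Counts of 1 regulator per 100 counts of another (vertical axes, from 0) in each library of WT, KO1 and KO2, with the group mean as a bar. SOX2 per POU5F1 steps down from 21.8 to 21.9 in WT to 10.2 and 11.7 in KO2. NANOG per POU5F1 is higher in both clones. SOX2-OT per SOX2 is lowest in KO1 but rests on 43 to 131 SOX2-OT counts in a library.

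KLF4, a Krüppel-like factor on chromosome 9 (chr9:107484852-107490482, reverse strand), had 38.1 and 35.5 CPM in WT, 43.3 and 38.0 in KO1, and 49.0 and 42.9 in KO2. KO1 overlapped with WT, and KO2 was above it. KLF4 rose in KO2 (log2 fold change 0.32 ± 0.09, adjusted p = 0.00564, edgeR) and did not pass the test in KO1 (0.14 ± 0.09, adjusted p = 0.226). The result in KO2 was not past the test without WT replicate 2 (0.27, adjusted p = 0.0776, edgeR) or without KO2 replicate 1 (0.23, adjusted p = 0.103). SALL4, a zinc-finger factor on chromosome 20 (chr20:51782331-51802521, reverse strand), had 269 and 276 CPM in WT, 304 and 289 in KO1, and 314 and 335 in KO2. The 3 groups were ordered without overlap, KO2 highest. SALL4 rose in KO2 (0.25 ± 0.06, adjusted p = 6.0e-04, edgeR), and in KO1 its log2 fold change was 0.12 ± 0.06 (adjusted p = 0.0817), or 0.18 (adjusted p = 0.0228) without KO1 replicate 2. The difference between the clones was 0.18 for KLF4 (95% interval -0.01 to 0.37) and 0.13 for SALL4 (0.01 to 0.25), with adjusted p of 0.190 and 0.120 (edgeR).

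The RNA-binding regulators were abundant, and their log2 fold changes were smaller than the fold threshold in both clones. L1TD1 on chromosome 1 (chr1:62194849-62212328, forward strand) had 1868 and 1954 CPM in WT, 1463 and 1407 in KO1, and 1445 and 1483 in KO2. WT and the clones were well separated, and the clones overlapped. L1TD1 fell by 0.41 ± 0.05 on the log2 scale in KO1 (adjusted p = 1.1e-07, edgeR) and by 0.38 ± 0.05 in KO2 (adjusted p = 2.8e-07). The clones differed by 0.03 (95% interval -0.07 to 0.13). LIN28A, also on chromosome 1 (chr1:26410817-26429728, forward strand), had 1655 and 1795 CPM in WT, 1285 and 1460 in KO1, and 1404 and 1498 in KO2. The KO libraries were below WT throughout. LIN28A fell by 0.33 ± 0.06 in KO1 (adjusted p = 3.9e-05, edgeR) and by 0.25 ± 0.06 in KO2 (adjusted p = 8.0e-04). The pooled value of -0.29 (adjusted p = 0.0142, edgeR) was -0.23 without WT replicate 2, where it did not pass the test (adjusted p = 0.145). Between the clones LIN28A differed by 0.08 (adjusted p = 0.381, edgeR), or by 0.17 (adjusted p = 0.0396) without KO1 replicate 2.

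LIN28B, the paralog of LIN28A on chromosome 6 (chr6:104936616-105083332, forward strand), had 232 and 258 CPM in WT, 196 and 233 in KO1, and 220 and 244 in KO2. Its groups overlapped. It passed the test in KO1 alone (log2 fold change -0.19 ± 0.07, adjusted p = 0.0395, edgeR), and not without WT replicate 2 (-0.10, adjusted p = 0.409) or KO1 replicate 1 (-0.06, adjusted p = 0.518), nor by DESeq2 (adjusted p = 0.0815). In KO2 it had -0.07 (adjusted p = 0.420, edgeR). Between the clones LIN28B differed by 0.11 (adjusted p = 0.318, edgeR), or by 0.24 (adjusted p = 0.0192) without KO1 replicate 2. LIN28B-AS1, which shares 181 exon bases with LIN28B on the other strand, had 45 counts over all 6 libraries. LIN28B counts per 100 LIN28A counts were 14.0 and 14.3 in WT and 15.3 to 16.3 in the clones. Of 12 tested genes of let-7 processing, the partners through which LIN28 proteins act on let-7 precursors and the general microRNA machinery, none was called in any comparison by edgeR, and none by DESeq2 with the KO libraries together (median log2 fold change -0.12). At an unadjusted p under 0.05 in edgeR, 3 of the 12 were lower there, a cutoff at which all genes were not counted. The 2 that passed the adjusted p alone with the KO libraries together, named after their values were seen, were DICER1 (-0.45, adjusted p = 0.00161, edgeR) and the helicase gene DDX17 (-0.37, adjusted p = 0.00148). Of 18 textbook let-7 target mRNAs, 6 were called higher and 1 lower with a median of 0.23, beside 14.9% higher and 8.70% lower among all tested genes. Among them were the cell cycle genes CDK6 (2.51), CCND1 (2.28) and CCND2 (0.97) as higher, and the RNA-binding protein gene IGF2BP3 (-0.86) as lower.

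TERT, on chromosome 5 (chr5:1253147-1295068, reverse strand), was low per kilobase, as given above, with 282 and 256 counts in WT, 265 and 240 in KO1, and 182 and 154 in KO2. In CPM these were 17.3 and 15.3 in WT, 13.9 and 13.2 in KO1, and 10.0 and 9.60 in KO2. The 3 groups did not overlap. TERT fell by 0.73 ± 0.12 on the log2 scale in KO2 (adjusted p = 2.0e-05, edgeR), to 60.2% of WT, and was called there under each set of libraries that left 1 out. In KO1 its log2 fold change was -0.27 ± 0.12 (adjusted p = 0.0642, edgeR), and with the KO libraries together -0.48 ± 0.17 (adjusted p = 0.0530). KO2 was below KO1 by a log2 difference of -0.46 ± 0.13 (adjusted p = 0.00956, edgeR). That difference did not pass the test without KO1 replicate 1 (-0.42, adjusted p = 0.0574, edgeR), without KO2 replicate 2 (-0.43, adjusted p = 0.0765) or by DESeq2 (adjusted p = 0.0995). The pooled change passed without KO1 replicate 1 (-0.57, adjusted p = 0.0261, edgeR) and without KO1 replicate 2 (-0.53, adjusted p = 0.0496).

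Of 16 tested partners of TERT in telomerase and of shelterin, the complex that caps telomeres, 2 were called higher and 1 lower, with a median log2 fold change of -0.07. Among all tested genes 14.9% were called higher and 8.70% lower, so these counts show nothing particular to the partners. TERF1, which binds telomeric repeats, had 794 and 851 CPM in WT, 240 and 259 in KO1, and 206 and 232 in KO2. TERF1 fell by 1.81 ± 0.08 on the log2 scale with the KO libraries together (adjusted p = 9.6e-07, edgeR), to 28.5% of WT. The telomerase-associated protein gene TEP1 rose by 1.06 ± 0.20 and the shelterin gene TERF2IP, which encodes RAP1, by 0.83 ± 0.13 (adjusted p = 0.00295 and 0.00135, edgeR).

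CACGTG, the E-box bound by MYC and MAX, was searched because MAX is a partner of PRC1.6, and it occurred in 3 of the 10 windows of the regulators. It was held by 7.23% of all RefSeq promoters. The E2F6 letters GCGGGAA, held by 6.54%, were in 0 of the 10. The 30 bases around each CACGTG, in capitals, are chr5:1295214-1295243 (reverse strand) for TERT, chr6:104957048-104957077 (forward strand) for the second RefSeq start of LIN28B and chr9:107489909-107489938 (reverse strand) for KLF4.
TERT: gaccgcgcttccCACGTGgcggagggactg
LIN28B: aattgacaaagtCACGTGtgctcagggggc
KLF4: ctcccccgccccCACGTGcgccgagtttgt
They begin at positions -163, -47 and -157 relative to these starts. These 3 genes had pooled log2 fold changes of -0.48, -0.13 and 0.23, none of which was called.

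**Figure D3:**
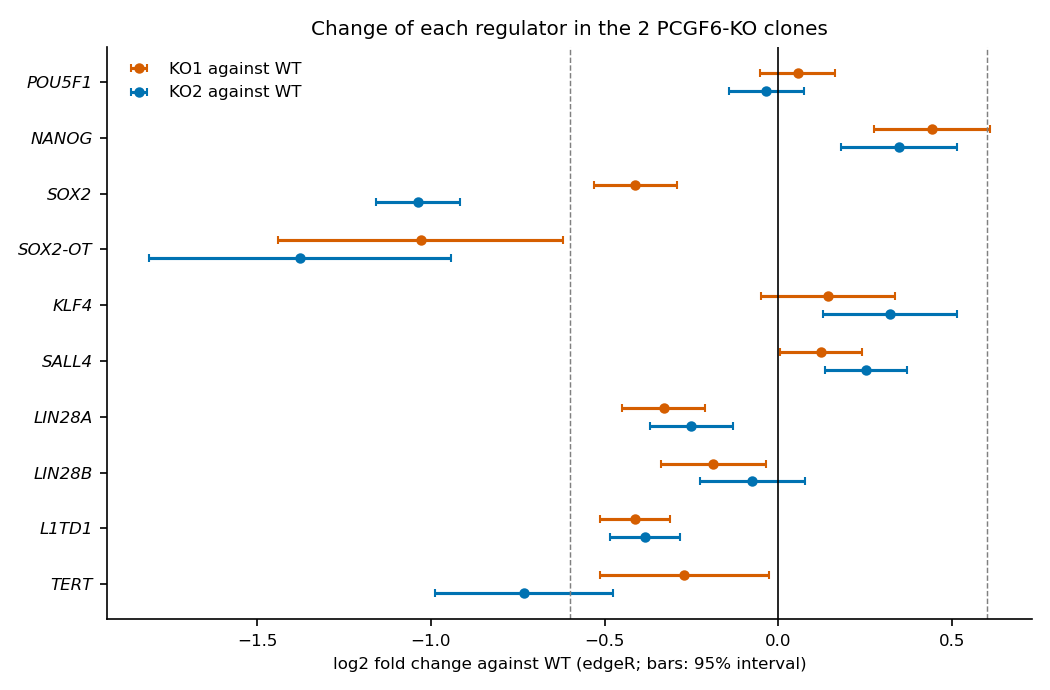
Log2 fold change of each regulator (horizontal axis) in KO1 (orange) and KO2 (blue) against WT, with bars for the 95% interval and dashed lines at the fold threshold of 0.6 on either side. SOX2-OT lies below the threshold in both clones, SOX2 and TERT in KO2, and the POU5F1 intervals include 0.

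Between the clones, SOX2 and TERT were the 2 regulators past the adjusted p, both lower in KO2, where 19.5% of all genes passed and 8.82% were lower. The other 8 had log2 differences from -0.35 to 0.18. The 3 genes nearest to SOX2 in pattern over the KO libraries were SLC38A5 (0.0514), GNB3 (0.0592) and PLCG2 (0.0650), out of 10625 genes compared. The distance was the root mean square difference of log2 levels over the KO libraries, with each gene centred on its WT mean. SLC38A5, an amino acid transporter gene, had 80.3 and 85.3 CPM in WT, 63.4 and 61.1 in KO1, and 39.2 and 39.2 in KO2. SOX2-OT was nearest to ZIC2 (0.0413), PPP1R16B (0.0457) and IL1RAP (0.0567). ZIC2, a zinc-finger factor gene, had 220 and 209 CPM in WT, 104 and 114 in KO1, and 87.0 and 90.5 in KO2. NANOG was nearest to NIPA2 (0.0268), ZNF37A (0.0268) and SOCS4 (0.0363).

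The wider primed network moved in both directions. Of its 40 other genes, 10 were called higher and 14 lower with the KO libraries together, beside 14.9% and 8.70% of all tested genes. Their median log2 fold change was -0.19. ZFP42, the zinc-finger gene also called REX1, gave 304 and 329 counts in the WT libraries and at most 2 in any of the 4 KO libraries. HESX1, a homeobox gene, had 14.6 and 17.3 CPM in WT and 0.499 to 2.09 in the clones. It fell by 3.90 ± 0.37 on the log2 scale (adjusted p = 6.0e-05, edgeR). The growth factor gene FGF4 rose by 4.49 ± 0.34 (adjusted p = 1.4e-05, edgeR), from 1.41 and 1.56 CPM in WT to 24.3 to 44.7 in the clones. LINC-ROR, a noncoding RNA of pluripotent cells, rose by 3.77 ± 0.11 (adjusted p = 8.3e-08, edgeR).

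Of 7 genes with textbook OCT4-SOX2 elements, 2 were called higher and 2 lower (median 0.22), beside 14.9% and 8.70% of all tested genes. FGF4 and ZFP42 are among them too. The others were SPP1, which encodes osteopontin and rose from 46.1 and 44.3 CPM in WT to between 602 and 979 in the clones (log2 fold change 4.14 ± 0.25, adjusted p = 3.9e-06, edgeR), and the adhesion gene NCAM1, which fell by 0.81 ± 0.11 (adjusted p = 5.3e-04). Of 20 listed genes of naive pluripotency, 14 were tested. Of these, 8 were called higher and 2 lower (median 1.95), beside 14.9% and 8.70% of all tested genes. The 2 called lower, named after their values were seen, were ESRRB (-1.24) and DPPA3 (-1.91). TBX3, a T-box factor gene, had 2 counts in each WT library and 359 to 1149 in the clones. DNMT3L, a cofactor of DNA methyltransferases, had 0 and 2 counts in WT and 52 to 72 in the clones. Near 0 in WT, TBX3 and DNMT3L passed the filter only through the KO libraries. GBX2 and KLF5 also rose, by 5.75 ± 0.31 and 3.76 ± 0.32 (adjusted p = 2.2e-06 and 2.7e-05, edgeR). Of 12 tested paralogs of the regulators, 5 were called higher and 2 lower (median 0.37), beside the same 14.9% and 8.70% of all tested genes. KLF5 counts here as well, beside the SOX gene SOX14, with 3 and 4 counts in WT and 74 to 91 in the clones. SALL3, the paralog of SALL4, rose by 2.20 ± 0.08 (adjusted p = 2.1e-07, edgeR), and the POU gene POU3F1 fell by 2.13 ± 0.21 (adjusted p = 7.8e-05).

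Markers of differentiated lineages moved with the genotype, and their part in the changes of SOX2, SOX2-OT and NANOG was not tested. All 18 tested mesendoderm markers were called higher, beside 14.9% of all tested genes. The 4 of them at 0 in WT, and those near 0 there, passed the filter on low counts only through the KO libraries. Such genes could only come out higher, so the count of 18 is no independent support. The median log2 fold change of the 18 markers was 7.12, or 5.06 when the 4 genes at 0 in WT were set to a floor of 3 counts per library. Their summed level over 20 genes was 172.5 to 172.6 CPM in WT, 1350 to 1367 in KO1 and 1664 to 1683 in KO2, and 5 of the 20 were at 0 in WT. The mesoderm factor gene HAND1 had 0 counts in both WT libraries and 35.1 to 111 CPM in the clones. The mean of its 4 KO libraries was at least 394-fold above that floor, with KO1 (mean 38.8 CPM) below KO2 (105 CPM). CDX1, a caudal-type homeobox gene, also had 0 in WT. Its mean over the 4 KO libraries was at least 77.6-fold above the floor, with 9.26 CPM in KO1 and 19.0 in KO2. CDX2 had 1 count in each WT library and 660 to 1481 in the clones, and TBXT, the brachyury gene, had 0 and 12 in WT and 3065 to 5515 in the clones. These bounds cover counting error only.

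Of 15 listed neuroectoderm markers, 10 were tested. SOX1, SIX3, RAX, HES5 and NEUROG2 did not pass the filter on low counts, so the result does not cover them. Of the 10 tested, 7 were called higher and 1 lower (median 2.103), beside 14.9% and 8.70% of all tested genes. NCAM1 was the 1 called lower (-0.81). PAX6 (1.38) and FABP7 (-0.20), named after their values were seen, were not called. Of the 15 genes, 1 was at 0 in WT and 2 were at 0 in KO2. The 15 genes summed to 323 to 371 CPM in WT and 648 to 771 in the clones, of which NES alone gave 277 to 322 and 592 to 709. MEIS2 had 0 and 3 counts in WT and 205 to 284 in the clones, and ZIC1 3 and 6 against 41 to 62. DLK1 rose by 2.63 ± 0.24 and the intermediate filament gene NES by 1.11 ± 0.09 (adjusted p = 5.1e-05 and 2.9e-05, edgeR). Of 9 tested amnion and trophoblast markers, 6 were called higher with the KO libraries together, beside 14.9% of all tested genes. The 1 gene at 0 in WT passed the filter only through the KO libraries and could only come out higher. The median of the 9 was 3.77, or 2.86 with that gene set to the floor. KRT7 (-0.50), GABRP (-0.004) and HEY1 (0.04), named after their values were seen, were not called. In KO2 alone, 6 of the 9 were called higher and 1 lower. The 12 genes summed to 17.0 to 18.7 CPM in WT, 62.1 to 64.0 in KO1 and 93.1 to 95.1 in KO2, and 2 were at 0 in WT. TFAP2A rose by 5.47 ± 0.25, GATA3 by 4.63 ± 0.40, GATA2 by 4.35 ± 0.69 and ISL1 by 3.77 ± 0.62 on the log2 scale. KO2, the clone with less SOX2 and TERT, had the higher sums of mesendoderm and of amnion and trophoblast markers.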

How the data were processed

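The authors trimmed the reads with Trim Galore 0.6.2, aligned them to GRCh38 with HISAT2 2.1.0, counted them per gene with featureCounts and deposited the raw counts of the 6 RNA-seq libraries with a gene length. Annotation release, strand setting and handling of multi-mapped reads are not given in the sources used here, and genes that overlap or have near-identical copies are uncertain. The chromatin libraries were not analysed here. The regulators, lists, tests and thresholds were chosen with earlier results of these data known.

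Genes were filtered by filterByExpr (17672 of 57133 left) and compared by edgeR 4.0.16 (limma 3.58.1, R 4.3.3) with TMM scaling and the quasi-likelihood test, with the 4 KO libraries against WT in a fit of 2 groups and each clone in a fit of 3 groups. Adjustment was over all tested genes. CPM used the TMM-scaled library size, and CPM per kb the deposited length. Totals ran from 15877396 to 18918609. Among the regulators, relative counting error was largest for SOX2-OT, at 43 to 131 counts in a library, and next for TERT, at 154 to 282. Replicates differed more than counting error alone gives, with a chi-square per degree of freedom of 2.40 in WT, 4.50 in KO1 and 3.21 in KO2. Also tried were scaling by RLE, upper quartiles or library totals, DESeq2 1.42.0, other filters and thresholds, other fits, a replicate block, and leaving out each library. Steps were tested on simulated data.

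Genes named were the 10 regulators and PCGF6, genes with exons that overlap them, their pseudogene and antisense genes, the nearest gene of at least 1 log2 CPM on each side of SOX2, up to 4 genes of largest change per list (called alike in KO1 and KO2, mean level 1 log2 CPM or more), and the 3 genes nearest in pattern to SOX2, SOX2-OT and NANOG. Exceptions are given as chosen after their values were seen. Positions are from GENCODE 44 by symbol, and promoters from the RefSeq table of GRCh38.p14. Figures were drawn with matplotlib.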

Additional observations from a re-analysis of the deposited data

Results flagged for a closer look

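SOX2 and TERT differed between the 2 clones of the same knockout, tested as KO2 against KO1 in the fit with 3 groups by edgeR's quasi-likelihood test. The log2 difference was -0.63 for SOX2 (adjusted p = 1.3e-08), with both KO2 libraries below both KO1 libraries. It was -0.46 for TERT (adjusted p = 0.00956), again with both KO2 libraries below both KO1 libraries. Each clone is 1 edited line, and what separates the clones was not tested.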

How the results depend on the processing

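Of the 560 log2 fold changes recomputed for the 10 regulators under alternatives, 544 kept their direction and whether they were called. Another 12 changed sign and 4 lost the call. The losses are those of SOX2 given above. Most regulators were not called to begin with, so these counts do not cover shifts in adjusted p. Such shifts are given above for NANOG, LIN28A, LIN28B and KLF4. By adjusted p alone, 5 regulators passed with the KO libraries together, 6 in KO1, 8 in KO2 and 2 between the clones, and 6556, 8002, 8904 and 3442 of all genes. DESeq2 called 810 genes between the clones against 1390. Leaving out each library gave 1 to 2 regulators and 3041 to 4251 genes with the KO libraries together, 1 and 4068 to 4322 in KO1, 3 and 4794 to 5192 in KO2, and 0 to 1 and 1102 to 1419 between the clones; without 1 WT library, the lone one is assumed to vary like the other groups. Sign changes were in values near 0. With the KO libraries together, POU5F1 came to -0.020 with upper quartiles, to -0.039 with library totals and to between -0.019 and 0.043 when a library was left out. The range on leaving out a library was -0.0055 to 0.13 for POU5F1 in KO1, -0.070 to 0.012 for POU5F1 in KO2 and -0.15 to 0.0076 for LIN28B in KO2, where it was 4.369e-05 without WT replicate 2. Between the clones it was -0.0050 to 0.061 for L1TD1 (-0.046 with library totals), -0.0055 to 0.17 for LIN28A, -0.0041 to 0.24 for LIN28B and -0.21 to 0.013 for NANOG. The cause was not tested. Library totals alone moved the median of all genes in KO2 to -0.09.

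Replicate numbers are shared by the groups. Deviations of same-numbered libraries correlated by 0.05 (WT and KO1), 0.07 (WT and KO2) and 0.18 (KO1 and KO2) over 13863 genes. These correlations are weak but do not exclude shared batches. NANOG, LIN28A, LIN28B and SOX2-OT had higher CPM in replicate 2 than in replicate 1 in all 3 groups. KLF4 and TERT had lower CPM there, and the other regulators were mixed. The sources do not say whether same-numbered libraries were handled together. With the replicate block, 2, 1, 3 and 1 regulators were called and 3876, 4420, 5233 and 1484 of all genes, in the order above, and SOX2 with the KO libraries together had an adjusted p of 0.0431 (edgeR). The count of SOX2-OT, at most 131 in a library, limits its precision.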
